A study of Mus musculus with 2 samples.

Results

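Interferon receptors, their kinase, and the STAT, IRF and brake genes behind them were followed in ovaries of prenatally androgenized and control mice (*Ifnar1*, *Ifnar2*, *Ifngr1*, *Jak1*, *Stat2*, *Irf1*, *Irf7*, *Irf9* and *Usp18*). These 9 genes, of 20751 genes measured, were taken by their symbols in the deposited annotation, which assigns them 15 of 45037 probe sets, each a group of short oligonucleotides that measures a transcript.
Interferons are secreted proteins that cells release on sensing viral or other foreign nucleic acid, and these genes encode machinery that receives and relays them. Type I interferon (alpha and beta) binds a receptor made of the *Ifnar1* and *Ifnar2* products, while interferon gamma binds a receptor whose ligand-binding chain is encoded by *Ifngr1*. Both receptors carry the kinase encoded by *Jak1*, which phosphorylates STAT transcription factors. The products of *Stat2* and *Irf9* act in a complex that turns on interferon-stimulated genes, *Irf1* and *Irf7* encode transcription factors of the same family as *Irf9*, and *Usp18* encodes a protease that removes the ubiquitin-like modifier ISG15 and, by binding the *Ifnar2* product, dampens the receptor. In the ovary, leukocytes as well as resident cells can respond to interferon.
The values come from ovaries of ICR mice on the Affymetrix Mouse Genome 430 2.0 chip. PNA (prenatally androgenized) mice were daughters of dams given 350 µg of dihydrotestosterone (DHT), an androgen that is not converted to estrogen, in 70 µl of sesame oil under the skin on each of gestation days 16 to 18, and control mice were daughters of dams given the oil alone. Each group held 5 ovaries and is represented by 1 array, so neither SD nor p-value exists for any value here, and array and group cannot be told apart. The labels place removal of the ovaries at diestrus. They also mention both Bouin fixation and Trizol extraction of the ovaries. Whether the ovaries on the arrays were those removed at diestrus is therefore not certain. Neither the offspring's age when the ovaries were removed nor how RNA of the 5 ovaries was combined was found in the sources used here.
Values are linear signal intensities in arbitrary units, and differences are ratios of PNA over control, also given as log2. A change of at least 1.5-fold (0.58 on the log2 scale) was called higher or lower. A gene was represented by the brightest of its probe sets, and the 40th percentile of each array (30.4 for control, 30.6 for PNA) served as a floor under which a signal was not read as a level. All 15 probe sets lay above the floor on both arrays. As a check of the tissue, the 6 granulosa, 5 steroidogenic and 5 oocyte markers were all above the floor, and the 2 measured markers of oviduct and fat were below it. Of the ovarian markers, *Amh*, *Cyp19a1* and *Cyp17a1* were higher on the PNA array, *Lhcgr* was lower, and the rest stayed under 1.5-fold by their brightest probe sets. In an array of whole ovary, a change in the number of cells of a type and a change in RNA per cell cannot be told apart.

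Promoter sequences are shown for *Stat2* and *Irf1*, as examples of a match to each of 2 interferon response motifs, and for *Irf7*, the most changed of the genes with a sequence at hand. RefSeq windows from 250 bases before to 50 bases after the start (GRCm38.p6) matched 8 of the 9 genes, with 10 windows in all, and *Usp18* was not among them. Capitals mark the motif matches, and all sequences run 5′ to 3′ on the strand of the gene.
Stat2 (chr10:128270248-128270547, plus strand): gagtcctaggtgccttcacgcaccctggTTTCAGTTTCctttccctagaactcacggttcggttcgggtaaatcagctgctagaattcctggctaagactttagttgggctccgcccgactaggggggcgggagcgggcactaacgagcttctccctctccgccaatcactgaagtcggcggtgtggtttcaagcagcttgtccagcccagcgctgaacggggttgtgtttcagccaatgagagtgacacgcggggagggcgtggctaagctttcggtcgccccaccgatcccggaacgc
Irf1 (chr11:53769764-53770063, plus strand): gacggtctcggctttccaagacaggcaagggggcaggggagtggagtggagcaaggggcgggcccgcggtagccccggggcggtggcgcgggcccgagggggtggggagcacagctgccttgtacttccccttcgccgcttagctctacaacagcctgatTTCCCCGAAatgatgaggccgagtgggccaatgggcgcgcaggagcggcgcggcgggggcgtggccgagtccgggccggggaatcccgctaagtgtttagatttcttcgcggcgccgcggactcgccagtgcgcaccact
Irf7 (chr7:141266375-141266674, minus strand): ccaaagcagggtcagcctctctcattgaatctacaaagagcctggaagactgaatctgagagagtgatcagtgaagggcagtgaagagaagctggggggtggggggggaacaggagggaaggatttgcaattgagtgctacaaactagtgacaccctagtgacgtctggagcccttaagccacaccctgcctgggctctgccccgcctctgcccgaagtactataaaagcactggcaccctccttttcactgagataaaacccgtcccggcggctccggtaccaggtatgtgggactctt
The interferon-stimulated response element, the site of the complex that holds STAT2 and IRF9, was searched on both strands as a pair of GAAA half-sites with any 2 bases between them (TTTC half-sites on the other strand). The *Stat2* window alone among the 10 held it, as TTTCAGTTTC starting at base -222, counted with the first transcribed base as +1. Over all 32851 windows, 3.44% held this motif. The gamma-activated site, bound by STAT dimers, was searched as TTCNNNGAA, which reads the same on both strands. It was present in 3 of the 10 windows, as TTCCCCGAA from base -90 of the *Irf1* window shown, TTCCTGGAA from base -214 of *Ifnar2* and TTCACGGAA from base -5 of *Ifnar1*, against 8.30% of all windows. Another window of *Irf1* held no match. The motifs were searched separately and may overlap, and 0.454% of all windows held both. A match describes letters and is not a shown binding site. Nor does the lack of an exact match in so short a window show that a gene has no such site.

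*Irf7*, *Irf9* and the brake *Usp18* were higher in PNA ovaries, and *Stat2*, *Irf1*, the receptor genes and *Jak1* stayed under 1.5-fold by their brightest probe sets. The 9 genes were chosen with earlier results of these data known, so their counts and median are a description. Of the 9 genes, 3 were at least 1.5-fold higher (*Usp18*, *Irf7* and *Irf9*) and 0 were lower, where 1.85% of all 20751 genes were higher and 1.63% lower. By probe set, 4 of 15 were higher and 0 lower, where 2.16% of all 45037 probe sets were higher and 1.59% lower. Among the 14116 genes above the floor on 1 array or both, 2.49% were higher and 2.16% lower. The median log2 ratio of the 9 genes was 0.25, and that of all genes was -0.0019. By probe set, the median was 0.02 for the 15 and 0 for all 45037.

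**Figure D1:**
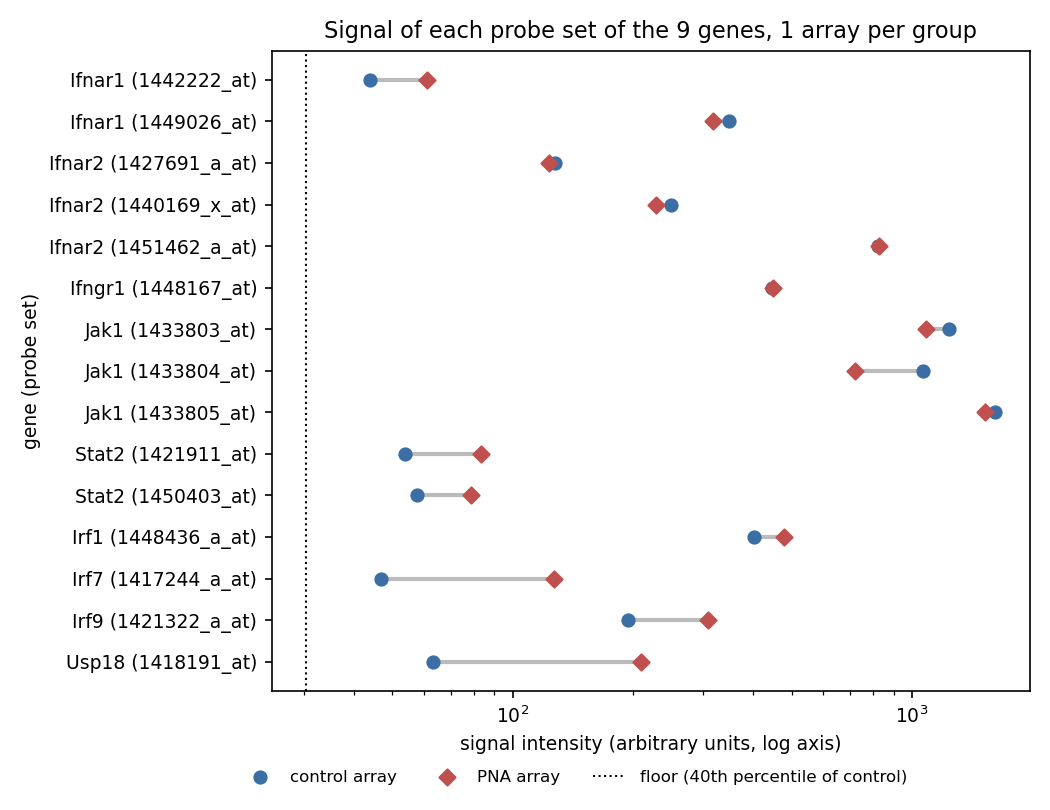
Signal intensity (horizontal log axis, arbitrary units) of each of the 15 probe sets of the 9 genes on the control array (circles) and the PNA array (diamonds), with the floor of the control array as a dotted line. The widest gaps belong to *Usp18* (63.2 and 209) and *Irf7* (46.9 and 127), and all signals lie above the floor.

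Among the receptor genes, the brighter probe set of *Ifnar1* read 349 on the control and 318 on the PNA array (log2 ratio -0.14). The dimmer one went the other way, from 43.9 to 61.1 (log2 ratio 0.48). The deposited annotation, which names no genome build, aligns the brighter one to chr16:91485245-91507441 and the dimmer one to a stretch of 796 bases inside that span, chr16:91490994-91491789. The 2 probe sets of *Ifnar1* thus differed by 0.61 on the log2 scale. For comparison, over the 3430 genes with 2 probe sets above the floor on both arrays, the difference had a median of 0.10 and a 95th percentile of 0.44.
*Ifnar2* varied little, its brightest probe set reading 821 for control and 829 for PNA (log2 ratio 0.02). The remaining probe sets gave 128 and 124 (log2 ratio -0.05) and 249.5 and 229 (log2 ratio -0.12). The brightest is aligned to chr16:91372791-91394040, and the others reach further, to 91405366 and 91405585. Transcripts for membrane-bound and soluble forms of the chain are known in the mouse. These probe sets, which end at different places, all stayed within 0.14 of each other, and which form each measures was not determined. The one that ends at 91405585 is of a type (suffix x) whose oligonucleotides can also match other sequences.
*Ifngr1* was the least changed member. Its single probe set read 446 for control and 449 for PNA (log2 ratio 0.01).
The type I receptor genes lie side by side on chromosome 16 with 2 further receptor genes, in the RefSeq order *Ifnar2*, *Il10rb*, *Ifnar1*, *Ifngr2*. *Il10rb*, a chain shared by the receptors of interleukin 10 and interferon lambda, went from 1383 to 1513 (log2 ratio 0.13). *Ifngr2*, the second chain of the interferon gamma receptor, went from 731 to 904 (log2 ratio 0.31), and was at 95.4 on both arrays by its dimmer probe set. None of these 4 neighbours passed 1.5-fold on any probe set.

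*Jak1* gave different answers on its 3 probe sets, all aligned to the same span, chr4:101152360-101184492. The brightest went from 1618 in control to 1521 in PNA ovaries (log2 ratio -0.09), and another from 1240 to 1087 (log2 ratio -0.19). The third fell short of the threshold, from 1068 to 720, 1.48-fold lower (log2 ratio -0.57), and passed it when both arrays were scaled to the same median. All of them were lower on the PNA array, over a range of 0.48. Over the 1556 genes with 3 probe sets above the floor on both arrays, that range had a median of 0.19 and a 95th percentile of 0.61.
The partner kinases were near their control level. *Tyk2*, the kinase on the *Ifnar1* chain, went from 160 to 163 (log2 ratio 0.03). *Jak2*, the kinase on the second chain of the interferon gamma receptor, went from 453 to 412 (log2 ratio -0.14).

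*Stat2* was measured by 2 probe sets that lie on either side of the threshold. The brighter went from 57.6 in control to 78.6 in PNA ovaries, 1.37-fold (log2 ratio 0.45), and the other from 53.7 to 83.5, 1.55-fold (log2 ratio 0.64). Both were higher on the PNA array and differed by 0.19, so the call of this gene depends on the probe set chosen. As the mean of both the log2 ratio was 0.54, and with 50 added to both signals, which damps the ratios of dim probe sets, the folds were 1.20 and 1.29.

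The IRF genes spread from little change to a large increase. *Irf1*, an early target of interferon gamma, went from 403 in control to 478 in PNA ovaries (log2 ratio 0.25), under the threshold on its single probe set. *Irf9*, the DNA-binding subunit of the complex with STAT2, rose from 194 to 309, 1.59-fold (log2 ratio 0.67). With 50 added to both signals the fold of *Irf9* was 1.47, under the threshold. *Irf7*, which drives the transcription of type I interferon genes and is itself induced by interferon, rose from 46.9 to 127, 2.70-fold (log2 ratio 1.44), and 1.82-fold with 50 added. Among all 20751 genes by their log2 ratio, *Irf7* ranked 37 from the top, *Irf9* ranked 293 and *Irf1* ranked 2111.
*Usp18* had the largest ratio of the 9 genes. Its single probe set went from 63.2 in control to 209 in PNA ovaries, 3.31-fold (log2 ratio 1.73), which ranked 14 of 20751, and the fold was 2.29 with 50 added to both signals. Probe sets of middle signal passed the fold threshold most often. When all probe sets were placed in 10 bins by mean signal, 3.77% of those in the bin of *Usp18* were at least 1.5-fold higher, 3.95% in the bin that *Irf7* and *Stat2* share, and 2.60% in the bin of *Irf9*, against 0.0888% in the dimmest bin and 1.31% in the brightest. *Usp18*, *Irf7*, *Irf9* and *Irf1* each rest on 1 probe set, so no second measurement on the array bears on them.

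**Figure D2:**
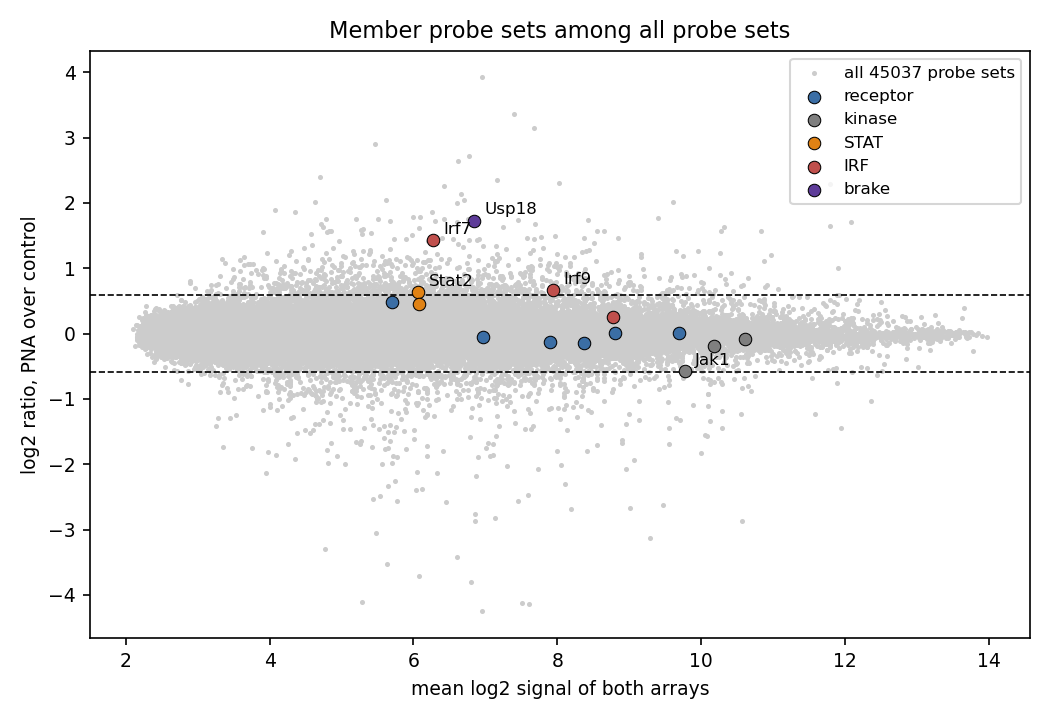
Log2 ratio of PNA over control (vertical) against the mean log2 signal of both arrays (horizontal) for all 45037 probe sets in grey, with the 15 member probe sets coloured by role and dashed lines at 1.5-fold. *Usp18* (1.73) and *Irf7* (1.44) lie far above the bulk, *Irf9* (0.67) and 1 probe set of *Stat2* (0.64) just above the upper line, and 1 probe set of *Jak1* (-0.57) just inside the lower one.

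Among the other pathway genes counted here, 4 were called. Of 58 such genes measured, 49 passed the floor on 1 array or both, of which 3 were higher (*Socs3*, *Ifih1* and *Dhx58*) and 1 was lower (*Ifnz*). Among all 14116 genes that did so, 2.49% were higher and 2.16% lower. The median log2 ratio of these 49 was 0.06, and that of the 14116 genes was -0.0066. With 50 added to both signals, 1 of the further genes was higher (*Ifih1*, log2 ratio 0.595) and 0 were lower. *Socs3* (log2 ratio 0.584) and *Dhx58* (log2 ratio 0.32) then fell under the threshold of 0.585.
Of the 6 other receptor chains and kinases, 0 passed the threshold in either direction, and *Jak3* had the highest log2 ratio, 0.42, from 54.0 to 72.0. Of 5 other STATs counted here, which are not the whole family, 0 were called. *Stat3*, which mainly serves interleukin 6 type cytokines, went from 649 to 771 (log2 ratio 0.25), and 1 of its 4 probe sets, below the floor on the control array, had a log2 ratio of 0.64. *Stat5a* went from 261 to 187 (log2 ratio -0.48) and its close paralog *Stat5b* from 421 to 310 (log2 ratio -0.44), both under the threshold. These serve prolactin and growth hormone, and their target *Cish*, a brake on cytokine receptors, went from 172 to 126 (log2 ratio -0.44).
Of the 9 other IRF genes and IRF2-binding proteins, 0 were called. *Irf2*, a repressor that binds the same sites as IRF1, went from 105 to 89.0 (log2 ratio -0.23), and *Irf3*, which starts interferon transcription after nucleic acid sensing, from 575 to 587 (log2 ratio 0.03). *Irf8*, a factor of macrophages and dendritic cells, went from 190 to 191 (log2 ratio 0.01). The log2 ratios of these 9 genes ran from -0.23 to 0.25.
Of 12 measured brakes other than *Usp18*, *Socs3*, an inhibitor of JAK kinases, was higher, from 134 to 226 by the brightest (log2 ratio 0.75). The remaining ones of *Socs3* had log2 ratios of 0.58 and 0.29, under the threshold, and the brightest one is of a type (suffix x) whose oligonucleotides can also match other sequences. *Socs1*, the main inhibitor of the interferon gamma receptor, went from 43.5 to 48.5 (log2 ratio 0.16). *Isg15* had no probe set that names it alone and was not counted.

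**Figure D3:**
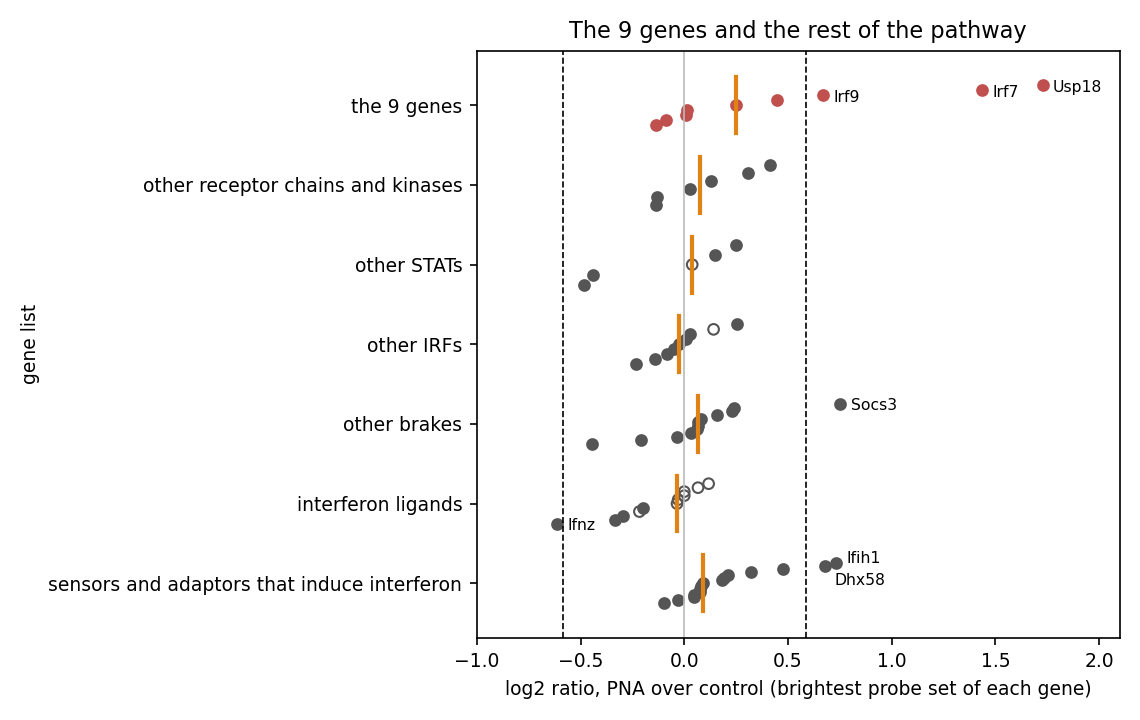
Log2 ratio of PNA over control by the brightest probe set (horizontal) for the 9 genes (red) and for 6 lists of other pathway genes (grey), with a bar at each list's median, open circles for genes below the floor on both arrays and dashed lines at 1.5-fold. *Usp18*, *Irf7* and *Irf9* pass the upper line, as do *Socs3*, *Ifih1* and *Dhx58*, and *Ifnz* alone passes the lower one.

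The interferon genes themselves gave little signal. Of 11 measured ligand genes, 7 were below the floor on both arrays, among them *Ifnb1*, the gene of interferon beta, at 14.04 and 14.7, and *Ifng*, the gene of interferon gamma, at 6.34 on both arrays. The other 4 read lower on the PNA array, where *Ifna1* and *Ifna2* were below the floor. Of the 4, only *Ifnz* was called, from 65.0 to 42.5, 1.53-fold lower (log2 ratio -0.61). The interferon alpha genes are close copies of each other, so their probe sets may not separate them.
Among 15 sensors and adaptors that lead to interferon production, 2 were higher and 0 lower. *Ifih1*, which encodes the cytosolic RNA sensor MDA5, rose from 171 to 284 (log2 ratio 0.73), and *Dhx58*, which encodes the related LGP2, rose from 36.2 to 57.8 by its brightest probe set (log2 ratio 0.68). The remaining probe sets of *Dhx58* were below the floor, at 12.2 and 11.1 and at 7.75 and 8.77. *Ddx58*, which encodes the sensor RIG-I, went from 163 to 226 (log2 ratio 0.48), under the threshold. These sensor genes are themselves known interferon-stimulated genes. The adaptors *Mavs*, *Myd88*, *Ticam1* and *Traf3* had log2 ratios of 0.09, 0.07, 0.08 and 0.05.

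Most effector genes that the pathway turns on were higher. Of 22 interferon-stimulated effectors measured, 20 passed the floor on 1 array or both. Of these, 16 were higher and 0 lower, with a median log2 ratio of 1.05. Among all 14116 genes that passed the floor in this way, 2.49% were higher and 2.16% lower. *Cxcl9* and *Cxcl10*, which are among the 16, were below the floor in control. The effector list was chosen with these values known, and its count and median are a description.
Some leukocyte markers, 3 of them of neutrophils, were also higher. Of 27 measured markers in 6 lists (pan-leukocyte, macrophage and monocyte, neutrophil, dendritic, T and NK, B and plasma cell), 5 were at least 1.5-fold higher (*S100a8*, *S100a9*, *Ngp*, *Cd14* and *Jchain*, with *Ngp* below the floor in control) and 0 lower, with a median log2 ratio of 0.32, where 1.85% of all genes were higher. None of the pan-leukocyte, dendritic or T and NK cell markers passed the threshold. The 4 pan-leukocyte markers all read higher, with log2 ratios from 0.19 to 0.58 (median 0.50). The median was 0.21 for the dendritic and 0.22 for the T and NK cell markers. Of the latter, *Cd8a* read lower by its brightest probe set, from 41.6 to 32.8 (log2 ratio -0.35). Its 5 probe sets ran from -0.35 to 0.19. The summed signal of the 27 markers was 4204 in control and 5549 in PNA ovaries. It was 2713 and 3857 without *Bst2*, a dendritic marker that is also interferon-stimulated and stands in the effector list as well (1491 and 1692). *Ptprc*, the pan-leukocyte marker CD45, went from 195 to 285 (log2 ratio 0.55), and *Siglech*, a marker of plasmacytoid dendritic cells, in which *Irf7* is abundant, from 36.7 to 46.1 (log2 ratio 0.33). The B cell markers *Cd79a*, *Cd79b* and *Ms4a1* were below the floor on both arrays, as were *Cd3g*, *Gzma*, *Klrb1c* and the neutrophil marker *Camp*. The part of leukocyte number in the ratios of *Usp18*, *Irf7* and *Irf9* was not tested.

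**Figure D4:**
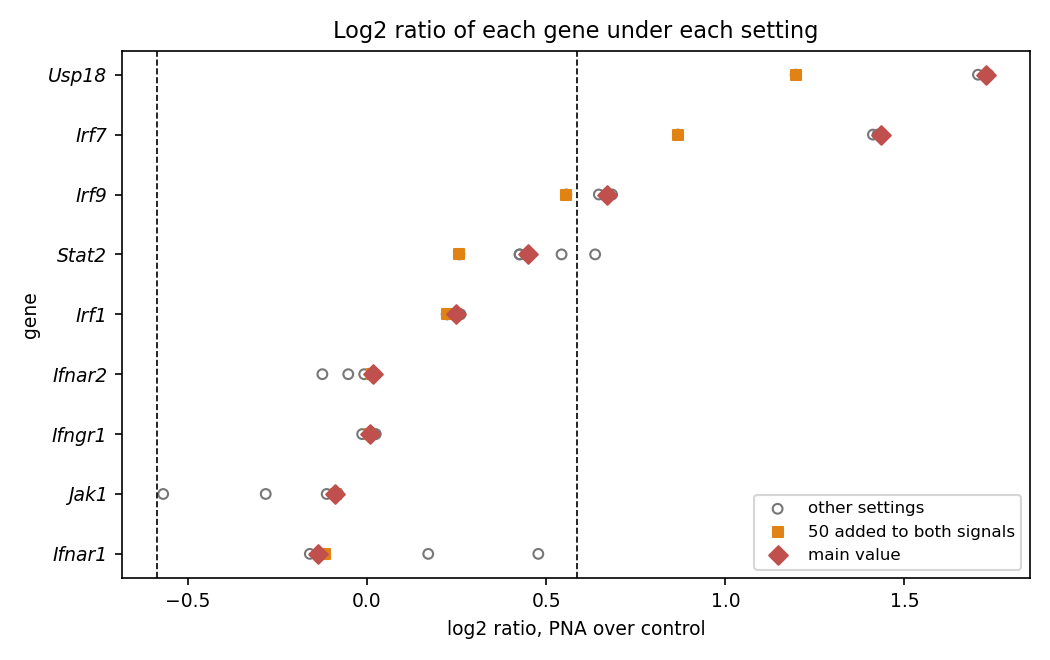
Log2 ratio of PNA over control (horizontal) for each of the 9 genes in the main setting (diamonds), with 50 added to both signals (squares) and under the other settings of scaling, filtering, probe set choice and source table (open circles), with dashed lines at 1.5-fold. *Usp18* and *Irf7* stay above the upper line in each, *Irf9* drops to 0.56 with 50 added, and *Stat2* reaches 0.64 by its other probe set.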

How the data were processed

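RNA from PNA and control ovaries was measured on Affymetrix Mouse Genome 430 2.0 chips, 1 for each group. The authors deposited a linear signal intensity per probe set, headed as raw data, and log2 values centred on the mean of both arrays. The ratios of both agree within 2.01e-06. Centring leaves a ratio as it is, so this does not show whether the intensity was normalized between arrays. The signal was exactly the same on both arrays for 2033 of the 45037 probe sets, among them the dimmer one of *Ifngr2* and that of *Ifng*. Identical signals may thus come from the processing rather than from a measured lack of change, which was not tested. The median signal was 48.7 on the control and 49.5 on the PNA array. The software that computed the intensity was not found in the sources used here. The files also hold the authors' fold changes and selected genes, which were not used.
Without the 64 control probe sets, 45037 remained. Of these, 38130 name 1 gene, 1253 several and 5654 none. Names were matched to RefSeq genes (GRCm38.p6) by Entrez ID for 35046. Ratios were computed with Python 3.11.15, numpy 2.4.6 and pandas 2.3.3, and a loess trend (fraction 0.3) with statsmodels 0.14.6. With 1 array in each group there is no spread to test against, and the number of arrays limits the precision. Alternatives were other scalings, an added 50, floors, the mean of all probe sets, a fold of 2 and the other deposited tables. Choosing, per gene, its most changed probe set was an alternative chosen after seeing the data. Named were the 9 genes, direct partners of fixed choice (*Ifngr2*, *Tyk2*, *Jak2*, *Stat3*, *Irf2*, *Irf3*, *Irf8*, *Socs1*, *Socs3*, *Isg15*) and members of each list past 1.5-fold. *Il10rb*, *Jak3*, *Stat5a*, *Stat5b*, *Cish*, *Ddx58*, *Ifna1*, *Ifna2*, *Ifnb1*, *Ifng*, the adaptors and the leukocyte markers were added after their values were seen. With 2 arrays, no genes of like pattern were sought. Of the listed genes, 2 are not reported here and enter no count of a list. The genes, lists and settings were chosen with earlier results of these data known.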

Additional observations from a re-analysis of the deposited data

How the results depend on the processing

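Of 99 recomputed ratios of the 9 genes, 96 kept their call at the threshold of the setting, with no called gene changing direction. Many of them could not differ. The floors, the fold of 2 and the other deposited tables left the ratio of each gene as it was. For genes with 1 probe set, the mean of all probe sets and the probe set of largest change did so too. The count of the 9 genes called higher was 3, and became 2 with 50 added to both signals, 2 at a fold of at least 2 and 4 with the probe set of largest change, an alternative chosen after seeing the data. It stayed at 3 under the other settings, and 0 were lower under each. Small ratios changed sign between settings, from -0.01 to 0.02 for *Ifngr1* and from -0.12 to 0.02 for *Ifnar2*. That of *Ifnar1* ran from -0.16 to 0.48, where the upper value is that of its dimmer probe set. With 50 added to both signals, member probe sets called higher went from 4 to 2, *Irf9* fell to 0.56, and the further pathway genes went to 1 higher and 0 lower. At a fold of at least 2, 2 member probe sets and 0 further genes were higher, 0 further genes were lower, and *Irf9* was no longer called. With both arrays centred on 1 median, 1 member probe set (of *Jak1*) was lower. With the mean of all probe sets, 1 further gene was higher. With the probe set of largest change, the median of the 9 genes was 0.48 and *Stat2* reached 0.64. Over all genes, median scaling gave 356 higher and 371 lower against 383 and 339. With 50 added these were 158 and 161, and at 2-fold 94 and 117. No paired analysis was possible because each group has 1 array, and for the same reason no replicate could be left out.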

Other observations

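The product of *Usp18* removes ISG15 from proteins, and the enzymes that attach it were looked up after the values of *Usp18* were seen. *Herc6*, the ligase that completes ISG15 attachment in the mouse, was higher on its brightest probe set, from 121 to 200.1 (log2 ratio 0.72), and its 4 probe sets had log2 ratios from 0.30 to 0.72, with 1 past 1.5-fold. *Ube2l6*, the conjugating enzyme, went from 36.1 to 44.1 (log2 ratio 0.29), and *Uba7*, the activating enzyme, from 103 to 99.5 (log2 ratio -0.05), with 1 of its 3 probe sets past 1.5-fold at 0.63.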
